A study of Mus musculus with 4 samples.

Results

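Nanopore long reads that were assigned to no gene, and whose left end on the genome lay inside an intron, formed 23364 intronic loci in cultured mouse neural stem cells. Each row of the deposited table names an isoform either by a gene or, where no gene was assigned, by a chromosome and a position rounded to 1 kb. A row became a member when its 1 kb bin lay in the body of a GENCODE M21 gene, touched no annotated exon, and held 20 or more reads summed over the 4 libraries. Of 255164 rows, 208527 named no gene, 41171 of these had 20 or more reads, and 24283 met the whole rule. Rows of the same bin were summed to a locus, and the loci fell in 5919 host gene bodies. The loci were thus chosen by their total reads, so the number of reads is no finding here, and a locus read mainly in some of the libraries could pass through those alone. At the threshold, 1247 intronic rows had exactly 20 reads and were kept, while 1364 had 19 and were not.

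The study asked whether loss of Tut1, the terminal uridylyltransferase that extends the 3′ end of U6 snRNA, alters splicing in neural stem cells. Primary cells grown from embryonic neocortex received lipid nanoparticles (LNP), and 1 library of long PCR-amplified cDNA reads was made per group. Tut1f/f cells given an empty LNP were the control, titled wild type in the labels although their genotype carries the floxed allele. An LNP with Cre mRNA was given for 3 days to Tut1f/f;Cre cells, to Trp53f/f;Cre cells and to cells with both alleles, Tut1f/f;Trp53f/f;Cre, so Cre delivery is shared by the 3 other libraries and absent from the control. The duration of the empty LNP and the strain behind the floxed Tut1 allele were not given in the sources used here. The study's methods name the floxed Trp53 line as B6.129P2-Trp53tm1Brn/J, while a figure legend describes making Trp53-floxed mice by genome editing. Cre removes the floxed exons of Tut1, of Trp53, which encodes the tumour suppressor p53, or of both. With 1 library per group, no difference has a replicate check, and a difference from the control cannot be told apart from a difference between single cultures or preparations. Values given in fours below start with Tut1f/f, go on with Tut1f/f;Cre and then Trp53f/f;Cre, and end with Tut1f/f;Trp53f/f;Cre.

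Introns are transcribed with the exons of a gene, are cut out by the spliceosome, in which U6 snRNA sits at the catalytic core, and are usually degraded soon afterwards. An intronic read can belong to precursor RNA that keeps the intron, to an unannotated exon or end of the host, or to a separate RNA made within the host gene. The row names give only the bin of a left end, with no strand, so these kinds could not be separated and none is assigned to a locus below.

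A stretch of genome sequence could be read for those loci that hold a RefSeq gene start absent from the exon annotation used. RefSeq start windows of GRCm38.p6 (250 bases before to 50 after a start) were matched to the bins by position. Of 32851 starts, 51 lay in 50 of the loci, which is 0.214% of loci against 0.216% of all 912267 intronic bins, and 38 of these loci held the start of a gene other than the host. Shown here are the 4 windows lying wholly inside the loci with most reads, leaving out starts of genes named only by a Gm number, because they show what kind of annotated start an intronic read can fall on. Bases before the start are in lower case and the 50 from the start onward in capitals, 5′ to 3′ on the strand of the RefSeq gene.
Gpm6a, chr8:54779184-54779483, plus strand, in an intron of Wdr17: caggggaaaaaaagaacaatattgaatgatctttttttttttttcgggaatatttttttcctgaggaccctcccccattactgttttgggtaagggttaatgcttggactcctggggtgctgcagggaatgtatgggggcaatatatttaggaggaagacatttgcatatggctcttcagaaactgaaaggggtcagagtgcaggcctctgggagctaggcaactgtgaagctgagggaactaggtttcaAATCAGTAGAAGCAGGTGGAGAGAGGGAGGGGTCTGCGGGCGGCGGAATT
Nfia, chr4:97581693-97581992, plus strand, in an intron of E130114P18Rik: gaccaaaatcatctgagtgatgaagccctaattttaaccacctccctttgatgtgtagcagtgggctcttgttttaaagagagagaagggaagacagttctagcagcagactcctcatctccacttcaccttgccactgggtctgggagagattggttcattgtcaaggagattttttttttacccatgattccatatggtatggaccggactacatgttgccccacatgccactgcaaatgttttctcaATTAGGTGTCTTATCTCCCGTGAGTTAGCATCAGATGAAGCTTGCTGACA
Atxn2, chr5:121738282-121738581, plus strand, in an intron of Atxn2: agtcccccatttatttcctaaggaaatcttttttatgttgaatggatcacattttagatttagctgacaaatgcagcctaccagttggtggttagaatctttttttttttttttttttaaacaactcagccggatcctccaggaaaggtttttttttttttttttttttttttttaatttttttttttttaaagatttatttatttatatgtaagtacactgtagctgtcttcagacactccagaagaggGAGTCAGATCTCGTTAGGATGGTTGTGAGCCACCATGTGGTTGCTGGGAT
1700030L22Rik, chr12:53317090-53317389, minus strand, in an intron of Npas3: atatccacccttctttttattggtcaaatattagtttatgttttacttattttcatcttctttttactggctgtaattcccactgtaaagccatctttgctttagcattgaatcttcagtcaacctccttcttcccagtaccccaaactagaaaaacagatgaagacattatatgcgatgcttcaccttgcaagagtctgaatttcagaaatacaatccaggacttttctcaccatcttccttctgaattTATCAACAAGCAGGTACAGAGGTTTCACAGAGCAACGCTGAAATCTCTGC
Gpm6a encodes a neuronal membrane glycoprotein and Nfia a transcription factor of gliogenesis. The Gpm6a bin had 386, 228, 177 and 255 reads, the Nfia bin 23, 60, 65 and 66, the Atxn2 bin 11, 24, 38 and 40, and the 1700030L22Rik bin 13, 32, 22 and 18. The control was thus the highest of the 4 libraries at Gpm6a and the lowest at the other 3 by reads. G and C made up 47% of the Gpm6a window, 44.7% of Nfia, 32.7% of Atxn2 and 37.3% of 1700030L22Rik, against a median of 52.7% over all RefSeq windows. Of these 4, the Atxn2 window alone held a TATAAA on either strand, as did 13.6% of all windows. The longest run of A or of T was 27 bases in the Atxn2 window, 13 in Gpm6a, 10 in Nfia and 5 in 1700030L22Rik. Of the 29 windows wholly inside loci, 5 (17.2%) held a run of 12 or more A or T, against 3.24% of all windows, most of which are not intronic.

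The libraries held 3936827 to 5125888 reads, of which 2863392 to 4244467 named a gene. CPM below are counts scaled to the gene reads of a library, with TMM factors over genes of 0.937 to 1.03. Neural stem cell markers summed to between 11594 and 13393 CPM over 10 measured genes of 12, neuron markers (5 of 7 with a row) to 67.7 to 84.7 CPM and the 1 microglia marker of 4 with a row to at most 0.861 CPM, with no row for the 3 endothelial markers. Oligodendrocyte lineage markers (6 of 6) were 354 CPM in the control and 475 to 676 CPM in the others, astrocyte markers (3 of 4, Gfap having no row) 49.5, 11.9, 6.89 and 31.5 CPM, and their part in the results was not tested. Tut1 had 37, 11, 14 and 27 reads, so the Trp53f/f;Cre-labelled library, with Tut1 intact by label, had fewer than the Tut1f/f;Trp53f/f;Cre-labelled library. The count covers the whole gene while Cre removes exon 2 alone, so it need not drop after deletion and does not check it, and exon-level reads were not analysed here. Trp53 had 175, 67, 10 and 19 reads. Xist had 0, 44, 49 and 0 reads and the Y-linked Kdm5d 102, 0, 0 and 96, a split by sex-linked genes that the labels do not give. The ribosomal RNA gene CT010467.1 took 18.7% of gene reads in the control and 9.75%, 8.91% and 5.46% in the others.

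Intronic loci were mostly small, scattered and close to exons. The median locus had 35 reads over the 4 libraries (quartiles 25 and 58), 2425 loci had 100 or more and 46 had 1000 or more. A single row made up 22476 of the loci, and 3907 (16.7%) had a neighbouring bin that was also a locus. Only 2.56% of all intronic bins of the genome held a locus, and 4.90% of those in host genes. The median distance to the nearest exon was 3.78 kb, against 5.25 kb over all intronic bins of the host genes, and 71.1% of loci lay within 10 kb of an exon against 65.7% of those bins. By place along the host, counted from its 5′ end, 30.2% of loci lay in the leading 0.25 of its length, 27.1% and 24.6% in the next stretches of that size and 18.1% in the last. The 2 numbers that open a row name were taken as the span of the read that named it, which the files do not state. On that reading, the median naming read was 2171 bases long (quartiles 1536 and 2869), against 1940 for bins touching an exon and 987 for intergenic bins. In 12.8% of loci such a read would reach the next annotated exon if it ran on without a gap.

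Long genes held many loci, and in many hosts the loci held more reads than the rows naming the gene. Of the loci, 22226 lay in exactly 1 gene body, and 96.6% of these loci were in a protein-coding host. Among 5245 such hosts, 2363 had 1 locus and 452 had 10 or more, and these 452 held 49.6% of the loci. The median host was 57.5 kb long, against 213 kb for hosts with 10 or more loci. Across the hosts, the number of loci and the length had a Spearman rho of 0.50, and locus reads and gene reads 0.13 (n = 5245 genes, which share libraries and are not independent). In 2362 hosts (45.0%) the loci held more reads than all rows naming the gene, and 956 hosts had no row of their own. Lsamp, a cell adhesion gene of 2197 kb, held 317 loci, and Npas3, a bHLH-PAS transcription factor gene, 200. Pcdh9 (a protocadherin) held 139 and Grm5 (a glutamate receptor) 110. Erbb4, a neuregulin receptor gene, held 95 loci, 4 of them shared with another gene body, and had no gene read in any library.

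Intronic loci took a smaller share of reads in the control than in any library given Cre mRNA. They held 229948, 445425, 466313 and 373891 reads. That is 4.49% of all reads for the control (95% Wilson interval 4.47 to 4.50), 10.5% for Tut1f/f;Cre (10.4 to 10.5), 9.65% for the Trp53f/f;Cre-labelled library (9.63 to 9.68) and 9.50% for the Tut1f/f;Trp53f/f;Cre-labelled library (9.47 to 9.53). The library without Cre mRNA was lowest, and the others were 2.33, 2.15 and 2.12 times as high. Intervals in this text cover counting error only, since amplified reads that carry no molecular identifier cannot be counted as separate molecules. Bins touching an exon had 6.46% in the control and 9.11% to 10.3% in the others, and the summed share of intergenic bins went the other way, with 3.74% against 2.56% to 2.98%. Cdk8, Camk1d and the other 8 loci with most reads held 11.9% of all locus reads. Without these 10, an alternative chosen after the data were seen, the shares were 3.30%, 9.47%, 8.71% and 8.69%. In bulk RNA, fewer cells of a kind and less RNA per cell cannot be told apart.

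**Figure D1:**
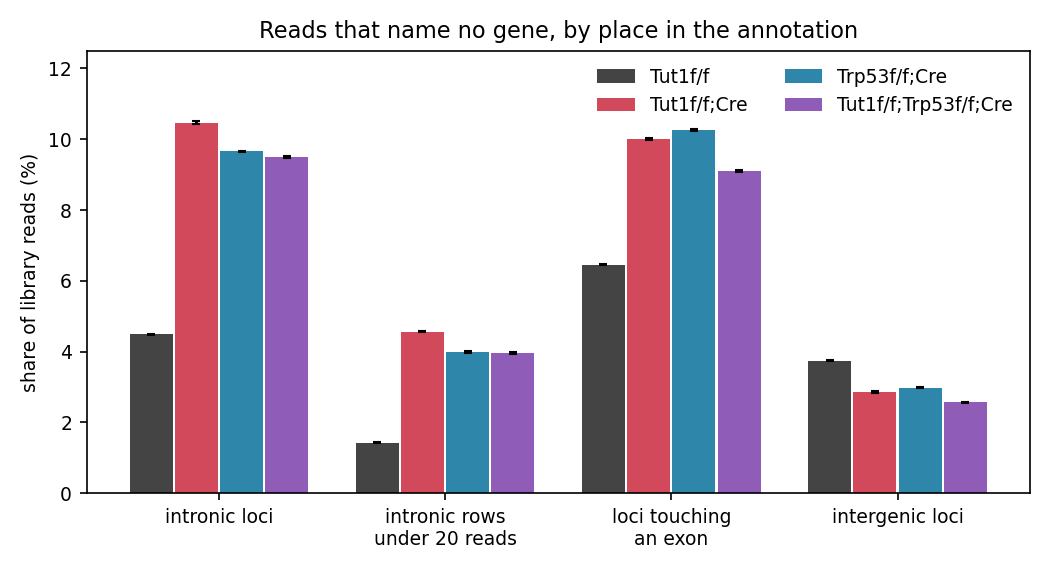
Share of all library reads (percent, y axis) held by 4 classes of rows naming no gene, with 1 bar per library and 95% Wilson intervals for counting error. Intronic loci sit at 4.49% in the Tut1f/f control and between 9.50% and 10.5% in the 3 libraries with Cre mRNA, whereas intergenic loci are highest in the control.

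Locus by locus, most differences ran in the same direction as the share. A locus was counted as different between 2 libraries when its CPM were at least 2-fold apart and the exact conditional 95% interval of the ratio excluded no change, a rule that compares libraries and not conditions. The rule was run on all 50770 features with 20 or more reads (genes and all unassigned bins), which gives the background. Between Tut1f/f;Cre and the control, 14219 loci (60.9%) were higher and 209 (0.895%) lower, against a background of 42.2% higher and 4.06% lower. Between the Trp53f/f;Cre-labelled library and the control, 13049 (55.9%) were higher and 223 lower, with backgrounds of 39.3% and 4.56%. For the Tut1f/f;Trp53f/f;Cre-labelled library against the control, 11336 (48.5%) were higher and 255 lower, with backgrounds of 34.1% and 3.92%. Genes taken alone were higher in 12.4%, 12.2% and 10.1% and lower in 13.3%, 15.3% and 10.2% of 11151 in these comparisons, which share the control library. Exon-touching bins were higher in 38.4%, 36.2% and 30.9% and lower in 1.96%, 2.16% and 3.41%, and intergenic bins higher in 27.8%, 27.7% and 26.2% and lower in 3.36%, 3.12% and 4.53%, so being mostly higher was not particular to intronic loci.

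The median log2 ratio of loci, with 0.5 reads added to each count, was 2.06 for Tut1f/f;Cre, 1.88 for the Trp53f/f;Cre-labelled library and 1.78 for the Tut1f/f;Trp53f/f;Cre-labelled library against the control, while genes had medians between -0.01 and 0.01. Bins touching an exon had 1.08, 1.04 and 0.92 and intergenic bins 0.76, 0.84 and 0.79, all below 0 once the libraries are set level over unassigned bins as described next. Genes of a similar size, with 20 to 100 reads, had medians of 0.14, 0.07 and 0.07, and loci with 100 or more reads had 2.03, 1.82 and 1.72. Between the Trp53f/f;Cre-labelled and the Tut1f/f;Trp53f/f;Cre-labelled libraries, which share no library with Tut1f/f;Cre against Tut1f/f, the median was -0.07, with 567 loci (2.43%) higher and 840 (3.6%) lower on backgrounds of 2.94% and 3.67%. Directions depend on scaling. Setting the libraries level over the unassigned bins in place of genes lowered every log2 ratio to the control by 1.50, 1.39 and 1.29 and moved the median of genes to -1.49, -1.40 and -1.30. The share of higher loci among those called then went from 98.6% to 71.9%, from 98.3% to 71.8% and from 97.8% to 72.7%, and loci kept medians of 0.56, 0.49 and 0.49. In the comparison of the last pair of libraries it went from 40.3% to 56.7%, and to 50.7% when all reads were used as library size.

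**Figure D2:**
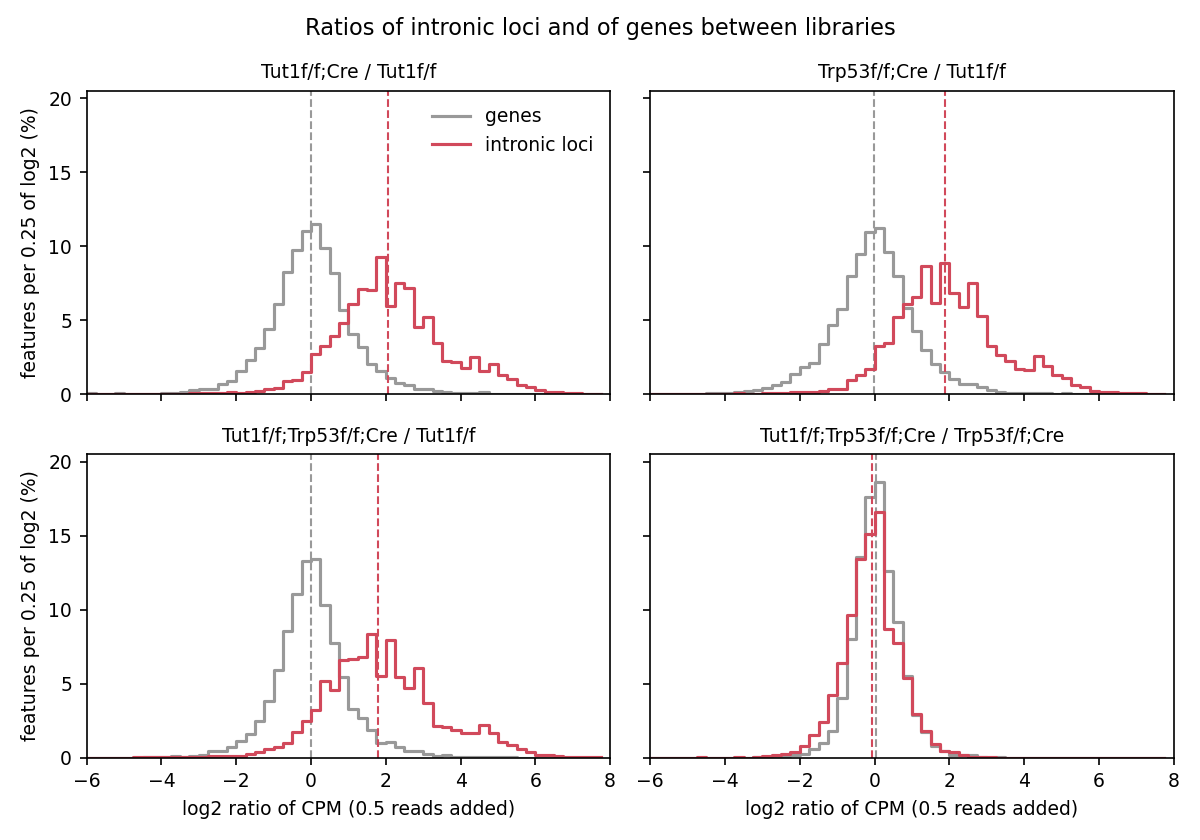
Distribution of log2 ratios of CPM (x axis) for intronic loci and for genes in 4 comparisons of libraries, as percent of features per 0.25 of log2 (y axis), with dashed lines at the medians. Against Tut1f/f the loci centre between 1.78 and 2.06 and the genes near 0, and between the 2 libraries labelled as lacking Trp53 both centre near 0.

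Loci without a read were mostly those of the control: 2429 loci (10.4%) had no read there, against 14, 10 and 42 in the others, and 20873 (89.3%) had reads in every library. Loci were chosen by reads summed over all libraries, most of which had Cre mRNA. A locus at 0 in the control passed through the libraries with Cre mRNA alone. A locus at 0 in a library with Cre mRNA could still pass through the rest, so the choice of loci has a part in this gap. The locus with most reads among those at 0 in the control was in Ccdc141 (chr2:77123001-77124000), which had 0, 184, 274 and 205 reads. Against a floor of 3 counts in the control it was at least 80.5-fold, 104-fold and 92.1-fold higher. It was picked after its values were seen, and it became a locus through the libraries with Cre mRNA alone. With every count of 0 set to 3 counts, the medians over all loci were 1.98, 1.78 and 1.75.

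The loci varied in how far they lay above the control, by their reads, by the naming read and by place. The 46 loci with 1000 or more reads had median log2 ratios of 0.54, 0.78 and 0.61, below 0 when scaled over unassigned bins, and in Tut1f/f;Cre 37% of them were higher and 19.6% lower than in the control, beside 42.2% and 4.06% of all features. Loci with at least 50 but under 100 reads had 2.14, 1.96 and 1.84, with 1.31% lower. Loci named by a read under 1000 bases had a median log2 ratio of 1.16 between Tut1f/f;Cre and the control (n = 2344), which the scaling over unassigned bins takes below 0, and those named by a read of 3 kb or more 2.23 (n = 5140). The Trp53f/f;Cre-labelled library gave 1.15 and 1.99 and the Tut1f/f;Trp53f/f;Cre-labelled library 1.12 and 1.93. Shorter naming reads also went with more lower loci, 2.86% against 0.409% for Tut1f/f;Cre. Within 1 kb of an exon the medians were 1.77, 1.59 and 1.57 (n = 5525), between 5 and 20 kb from it 2.23, 2.07 and 1.87 (n = 6557), and from 20 kb on 2.18, 1.96 and 1.80 (n = 3737). In the leading 0.25 of the host's length they were 2.11, 1.96 and 1.81 and in the last 0.25 they were 1.96, 1.66 and 1.61. Hosts with no gene read had loci at 1.67, 1.47 and 1.38, lower than the 2.12, 1.92 and 1.81 of hosts with 100 or more but under 1000 gene reads, while hosts with 1000 or more had 1.98, 1.86 and 1.74. Loci on chromosome X, 552 in number, had medians of 2.02, 1.78 and 1.82, close to the autosomal 2.06, 1.88 and 1.78. These are descriptions over loci of the same 4 libraries and carry no test.

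**Figure D3:**
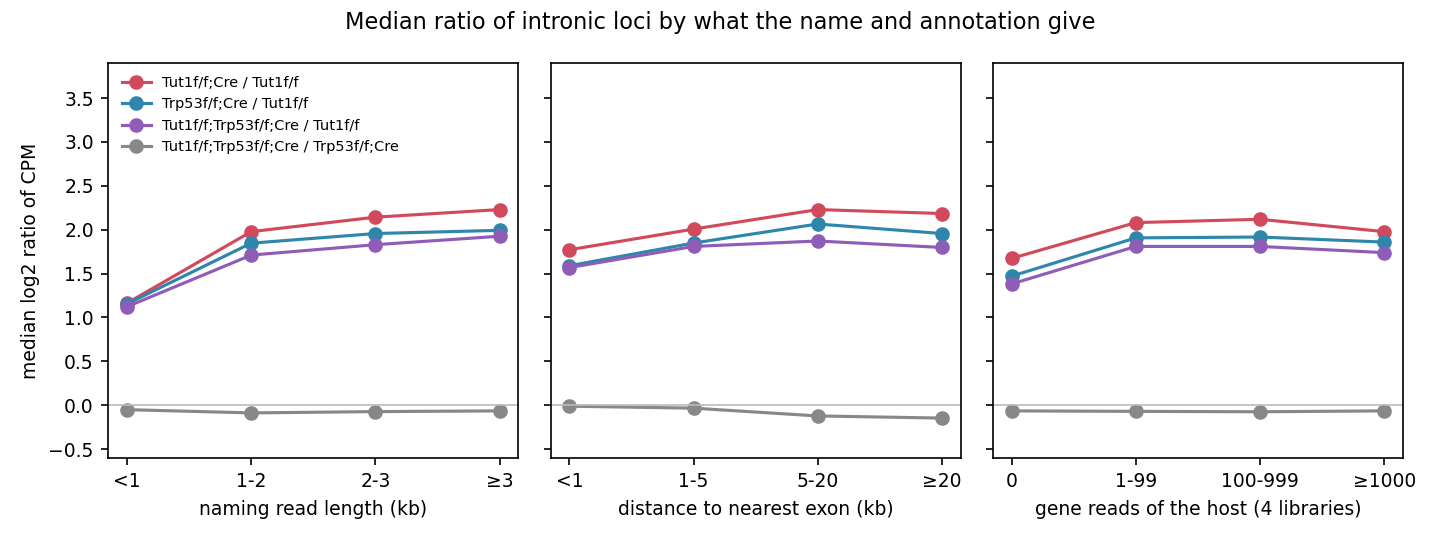
Median log2 ratio of CPM (y axis) of intronic loci, grouped by naming read length, by distance to the nearest exon and by gene reads of the host (x axes), for 4 comparisons of libraries drawn as lines. The 3 lines against Tut1f/f run from 1.12 to 1.16 at naming reads under 1 kb up to between 1.93 and 2.23 at 3 kb and over, and the line between the 2 libraries labelled as lacking Trp53 stays near 0.

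Set against the gene reads of the same hosts, which does not depend on the scaling of libraries, intronic reads were more abundant in the libraries with Cre mRNA. Over 2844 hosts with 20 or more gene reads in each library, loci held 15.5 reads per 100 gene reads in the control, 46.5 in Tut1f/f;Cre, 42.9 in the Trp53f/f;Cre-labelled library and 38.7 in the Tut1f/f;Trp53f/f;Cre-labelled library, or 2.99, 2.76 and 2.49 times the control. The median host had 8.66, 30, 28.2 and 27.3. Without Cdk8, whose locus had most reads, the summed values were 13.8, 42.0, 38.8 and 35.2. The median log2 ratio of a host's locus reads to the control was 1.88, 1.77 and 1.71, and that of its gene reads 0.15, 0.14 and 0.12, values that the scaling over genes sets near 0. Scaled over unassigned bins, the locus medians were 0.39, 0.39 and 0.42 and the gene medians -1.35, -1.25 and -1.17, so which of them lies farther from 0 depends on the scaling. The locus ratio was above the gene ratio in 2589 (91.0%), 2576 (90.6%) and 2547 (89.6%) of the hosts. Between the Trp53f/f;Cre-labelled and the Tut1f/f;Trp53f/f;Cre-labelled libraries it was 1363 of them (47.9%).

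The loci with most reads departed from the rest, since 5 of the 6 largest had their highest CPM in the control. Cdk8, a kinase of the Mediator complex, held the largest (chr5:146260001-146261000, 0.013 kb from an exon), with 12838, 26454, 26872 and 20365 reads. It was lowest in the control, at 3228 CPM against 8734, 7712 and 6902, with log2 ratios of 1.44 (95% interval 1.41 to 1.47), 1.26 (1.23 to 1.29) and 1.10 (1.06 to 1.13), which turned to -0.06, -0.13 and -0.19 when scaled over unassigned bins. Rows naming Cdk8 itself had 37, 59, 63 and 50 reads. Camk1d, a calcium/calmodulin-dependent kinase gene with no gene read, followed (chr2:5379001-5380000) with 21401, 5659, 5611 and 3420 reads. The control was the highest there, by log2 ratios of -1.53, -1.74 and -2.21 for the others. Jarid2, a Polycomb cofactor gene, had 7907, 2006, 2340 and 1034 reads in a bin at chr13:44869001-44870000 (log2 ratios -1.59, -1.57 and -2.50).

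An intron shared by the overlapping genes Cmss1 and Filip1l held 2 such loci. At chr16:57388001-57389000 there were 9167, 631, 865 and 315 reads (log2 ratios -3.47, -3.21 and -4.43), and at chr16:57391001-57392000 there were 4167, 1205, 1447 and 631 (-1.40, -1.34 and -2.29). Both were highest in the control and lowest in the Tut1f/f;Trp53f/f;Cre-labelled library. The rRNA gene CT010467.1 also had its highest CPM in the control and its lowest in that library, with the middle pair in the other order, at 199388, 95611, 87772 and 52989 CPM, with log2 ratios to the control of -1.06, -1.18 and -1.91. Whether rRNA reads have a part in the loci of Camk1d, Jarid2 and Cmss1/Filip1l was not tested.

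The other loci among the 10 with most reads were of both kinds. Fabp7, the fatty acid-binding protein of radial glia, had 2711, 1700, 2090 and 1106 reads in an intronic bin (chr10:57787001-57788000) beside 30043 to 39422 gene reads. None of its log2 ratios to the control passed 2-fold (-0.28, -0.18 and -0.86), whereas all did when scaled over unassigned bins (-1.78, -1.57 and -2.15). Oip5, a centromere protein gene, had 1524, 1343, 2263 and 1462 reads (chr2:119616001-119617000). Its log2 ratios of 0.21, 0.76 and 0.37 stayed within 2-fold and turned to -1.29, -0.63 and -0.92 when scaled over unassigned bins. Nav2 (neuron navigator 2) had 184, 1930, 1659 and 1549 reads at chr7:49018001-49019000, a log2 ratio of 3.78 (3.56 to 4.01), 3.36 (3.14 to 3.59) and 3.50 (3.28 to 3.73). Rere, an atrophin-family corepressor gene, had 581, 662, 1077 and 877 reads (chr4:150597001-150598000). Its log2 ratios were 0.58, 1.08 and 1.02, the last pair of which became -0.31 and -0.26 when scaled over unassigned bins. Maml2, a Notch coactivator gene, had 66, 1144, 1132 and 845 reads at chr9:13471001-13472000 (log2 ratios 4.51, 4.29 and 4.11). At Nav2 and Maml2 the control stood far below the other libraries, which lay close together.

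**Figure D4:**
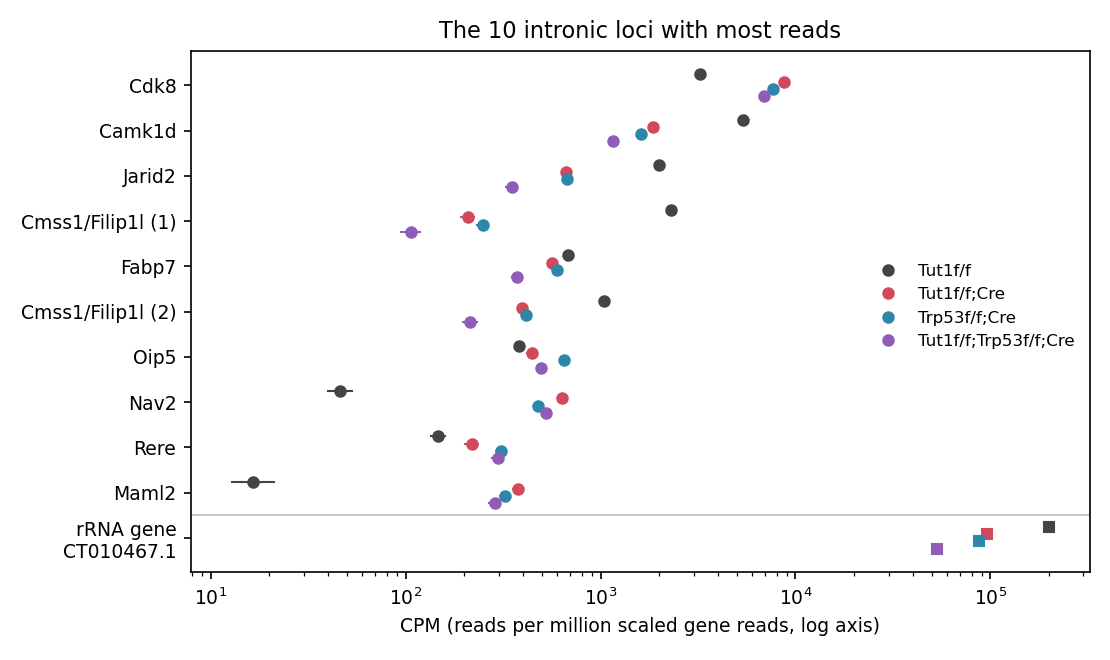
CPM (log x axis) of the 10 intronic loci with most reads, 1 point per library with exact Poisson 95% intervals, and below the line the rRNA gene CT010467.1. The control lies to the right of the others at Camk1d, Jarid2 and both Cmss1/Filip1l loci, as at the rRNA gene, and to the left at Cdk8, Nav2 and Maml2.

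Loci past the rule in the same direction in all 3 comparisons with the control were used to choose which loci to name, and their number is no result since the comparisons share that library. There were 8127 higher (34.8%, background 23.4%) and 161 lower (0.689%, background 2.13%). Beside Cdk8, Nav2 and Maml2, the higher loci with most reads were in Qk, Camk2b, Rhoq and Npas3. Qk encodes quaking, an RNA-binding regulator of splicing in glia. Its locus (chr17:10279001-10280000) had 6, 847, 647 and 944 reads, with log2 ratios of 7.53 (6.41 to 8.98), 6.94 (5.81 to 8.39) and 7.73 (6.60 to 9.18). Rows naming Qk had 215, 612, 640 and 520 reads, a far smaller gap. Npas3 (chr12:53431001-53432000) had 3, 520, 652 and 558 reads, or 0.754 CPM (0.156 to 2.20) in the control against 172, 187 and 189. Rhoq, a small GTPase gene, had 34, 657, 607 and 569 (chr17:86976001-86977000). Camk2b, a calcium/calmodulin-dependent kinase gene, had 237, 589, 1118 and 450 reads at chr11:6007001-6008000 and 191, 442, 738 and 478 at chr11:6009001-6010000. In all of them the control was lowest, and at both Camk2b bins the Trp53f/f;Cre-labelled library was highest. Scaled over unassigned bins, the Camk2b log2 ratios were 0.21, 1.04 and 0.07 at the former bin and 0.11, 0.75 and 0.46 at the latter, and only the 1.04 still passed the rule.

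The 161 lower loci were few but held 27.6% of the locus reads of the control, against 2.81%, 2.91% and 2.01% in the others. They were chosen on these reads, so the gap is a description. Their median naming read was 1476 bases long, and that of the 8127 higher loci 2407. After those named above, the lower loci with most reads were in Gphn, D130009I18Rik, Gm26561 and Gm21887. Gphn (gephyrin, a scaffold of inhibitory synapses) had 1676, 333, 332 and 143 reads at chr12:78350001-78351000, with log2 ratios of -1.94, -2.14 and -3.12. Reads in D130009I18Rik were 1229, 250, 182 and 181 (chr14:104715001-104716000), in Gm26561 850, 160, 160 and 74 (chr17:70963001-70964000) and in Gm21887 885, 53, 127 and 95 (chrX:170016001-170017000). None of these 3 hosts had a row of its own.

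Few loci followed the Tut1 labels in both comparisons that bear on them, of Tut1f/f;Cre with the control and of the Tut1f/f;Trp53f/f;Cre-labelled with the Trp53f/f;Cre-labelled library, which have no library in common. There were 388 higher in both (1.66%, background 1.28%) and 16 lower in both (0.0685%, background 0.207%), while 473 (2.02%, background 1.90%) passed the rule in opposite directions. Directions here rest on the labels, which the whole-gene reads of Tut1 do not check. Were the labels of the last pair of libraries exchanged, the 473 would pass in the same direction, and the 388 and 16 in opposite directions. The study's own splicing calls, not rechecked here, follow these labels, with events shared by both Tut1-deleted groups and absent after Trp53 deletion alone. Loci with 50 or more reads were named by the smaller of the ratios. Of the higher loci so named, that in Cdh10 (a cadherin) had most reads, with 0, 60, 23 and 83 (chr15:18856001-18857000). The control was at 0, and the Trp53f/f;Cre-labelled library lay between it and the libraries labelled as lacking Tut1. Nup98 (nuclear pore) had 2, 23, 7 and 26 reads, a log2 ratio of 3.92 (1.90 to 7.05) and 2.13 (0.89 to 3.58) in the respective comparisons. Dock10 had 3, 16, 7 and 29, Ext1 (heparan sulfate synthesis) 2, 20, 7 and 24, AC141471.2 2, 19, 7 and 27, Tcf12 (a bHLH factor) 1, 15, 11 and 35 and Chd7 (a chromatin remodeller) 1, 13, 9 and 28. A second Qk locus (chr17:10241001-10242000) had 6, 26, 12 and 38. When scaled over unassigned bins, the log2 ratios of Tut1f/f;Cre to the control at Dock10 (1.31), this Qk locus (1.0) and Chd7 (2.60) no longer passed the rule. In all of these the control was lowest and the Tut1f/f;Trp53f/f;Cre-labelled library highest.

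The lower loci of that pair of comparisons included the larger Cmss1/Filip1l locus above. Cdh22, a cadherin gene with no gene read, had 170, 1, 14 and 0 reads (chr2:165173001-165174000), and Rbfox1, a neuronal splicing regulator, 76, 7, 9 and 0 (chr16:6271001-6272000). Dscam had 59, 10, 13 and 3, 1110051M20Rik 87, 7, 15 and 4, and Gm26697 74, 12, 27 and 2. All 5 had the same ends, with the control highest and the Tut1f/f;Trp53f/f;Cre-labelled library lowest. Dscam and 1110051M20Rik no longer passed the rule in the last pair of libraries when scaled over unassigned bins (-1.78 and -1.57). Sema5a (a semaphorin) had 61, 5, 43 and 7 reads, so that both libraries with intact Tut1 by label were high. Snd1 had 9, 0, 34 and 11, with the Trp53f/f;Cre-labelled library alone high.

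The additive edgeR model over all 4 libraries (quasi-likelihood F test, Benjamini-Hochberg adjusted over 32146 genes and unassigned bins, 1 residual degree of freedom) tested 12498 of the loci. For Tut1 status it called 4, on a background of 0.0187% of features, with 411 loci (3.29%) at an unadjusted p under 0.05. They were Qk chr17:10279001-10280000 (log2 change 3.74 ± 0.68 SE, adjusted p = 0.00128), Cmss1/Filip1l chr16:57388001-57389000 (-2.35 ± 0.45, 0.00313), Npas3 chr12:53348001-53349000 (3.57 ± 0.73, 0.00614) and Cdh22, which had 0 reads in 1 library, so that its fitted change is no bound (adjusted p = 0.0168). This Npas3 locus had 3, 528, 425 and 548 reads. For Trp53 status it called 3, on a background of 0.0218%, with 282 loci (2.26%) at an unadjusted p under 0.05. Those were the same Cmss1/Filip1l locus (-2.10 ± 0.45, 0.0190), the same Qk locus (3.15 ± 0.69, 0.0253) and Npas3 chr12:53431001-53432000 (3.36 ± 0.76, 0.0394). At each of the 5 loci, the control stood apart from all other libraries. The model has no term for Cre mRNA, which the control alone lacked. A locus at which only the control differs can thus be called for either term. These calls therefore do not separate Tut1 or Trp53 status from a difference of the control. DESeq2 in the same model called 0 for either term, with 320 (2.56%) and 171 (1.37%) loci at an unadjusted p under 0.05. All these shares of the tested loci lie below what that threshold would give with no effect.

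Host sums ran in the same direction as most single loci. Over 5245 hosts, summed locus reads were higher than the control in 63.0%, 61.3% and 59.7% and lower in 1.12%, 1.05% and 1.32%, against 60.9%, 55.9% and 48.5% higher for single loci and 42.2%, 39.3% and 34.1% for all features. Npas3 had 1757, 7318, 7423 and 5842 reads over its 200 loci (log2 ratios 2.45, 2.27 and 2.16), and Lsamp 1631, 5671, 5204 and 3934 (2.19, 1.86 and 1.70). Maml2 had 734, 3275, 3395 and 2535, and Grm5 749, 2573, 2572 and 2024. In each the control was lowest and the last library was the lowest of the rest. In Jarid2 and Camk1d the sum followed the largest locus, which held 97.2% and 99.7% of it, while the other loci went the opposite way. The other 10 Jarid2 loci together had 24, 133, 134 and 98 reads (log2 ratios 2.86, 2.67 and 2.46), and the other Camk1d locus 0, 37, 42 and 20. Nav2 kept log2 ratios of 1.91, 1.72 and 1.49 outside its largest locus.

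Of 13 genes whose introns the study amplified by PCR, 6 held 8 loci. The study chose this list, so it is not independent evidence of a direction. In neural stem cells the study reports intron qPCR for Pnisr and Prpf4b. Its other intron qPCR is given with embryonic pallium in which Tut1 was deleted in vivo. A locus here need not lie in the intron that was amplified. Their median log2 ratios to the control were 1.14, 1.37 and 1.28, against 2.06, 1.88 and 1.78 over all loci, and turned to -0.36, -0.02 and -0.01 when scaled over unassigned bins. In the order of comparisons, 1, 1 and 2 of the 8 were higher and none was lower when scaled over genes. Over all intronic loci 60.9%, 55.9% and 48.5% were higher, and over all features 42.2%, 39.3% and 34.1%. Pnisr, an SR-related protein gene, had 25, 47, 35 and 22 reads over 2 loci, of which the smaller (chr4:21855001-21856000, with 3, 16, 8 and 8) was higher in Tut1f/f;Cre by 2.81 (95% interval 1.0 to 5.23), a ratio of 1.31 that no longer passed the rule when scaled over unassigned bins. The Tut1f/f;Trp53f/f;Cre-labelled library had 1.85 (-0.21 to 4.39), and the difference between these ratios was not tested. Trim28, a transcriptional corepressor gene, had 337, 256, 424 and 298 reads, all within 2-fold, but with log2 ratios of -1.50, -0.86 and -1.04 when scaled over unassigned bins. Srsf10, a splicing factor gene, had 10, 18, 29 and 20 over 2 loci. Kif3a and Smndc1 had at most 10 reads in any library. The locus in Trp53 itself (chr11:69582001-69583000) had 14, 19, 17 and 10 reads beside 175, 67, 10 and 19 gene reads, and none of its log2 ratios excluded no change, although that of the Tut1f/f;Trp53f/f;Cre-labelled library passed the rule as lower (-1.34) when scaled over unassigned bins. Tut1 held no locus.

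Splicing factors and kinases, 43 genes, held 220 loci in 26 hosts. Their medians against the control were 2.02, 1.84 and 1.76, slightly below the 2.06, 1.88 and 1.78 of all intronic loci. In Tut1f/f;Cre, 156 were higher and 3 lower, in the Trp53f/f;Cre-labelled library 148 and 3, and in the Tut1f/f;Trp53f/f;Cre-labelled library 126 and 3. The higher ones were 70.9%, 67.3% and 57.3% of the list, beside 60.9%, 55.9% and 48.5% of all intronic loci and 42.2%, 39.3% and 34.1% of all features. The share called higher depends on reads per locus. Over all loci in Tut1f/f;Cre it was 53.6% with under 50 reads and 79.3% with at least 50 but under 100. Qk led the list, with 466, 2593, 2127 and 2441 reads over 34 loci. Celf2, an RNA-binding splicing regulator, had 364, 1140, 1167 and 882 over 59, and Msi2 (musashi 2) 181, 774, 698 and 567 over 38. Rbfox2 had 52, 322, 350 and 257, and the control was lowest in each of these hosts. Its paralog Rbfox1 went the other way, with 116, 10, 16 and 2 reads over 2 loci (log2 ratios -3.14, -2.67 and -5.43). Picked after their values were seen, Son, Srrm2, Tra2b and Ddx17 held 1 locus each, with at most 14 reads in a library beside 285 to 3500 gene reads.

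Synaptic and adhesion genes with long introns, 36 genes, held 1704 loci in 32 hosts, with medians of 2.18, 1.78 and 1.71. In the order of libraries, 1187, 956 and 825 were higher than the control and 14, 19 and 27 lower. As shares of the list, 69.7%, 56.1% and 48.4% were higher, the last pair close to the 55.9% and 48.5% of all intronic loci, with 42.2%, 39.3% and 34.1% over all features. Nlgn1 (neuroligin) had 1032, 2181, 1997 and 1471 reads over 107 loci (log2 ratios 1.47, 1.14 and 0.94, negative when scaled over unassigned bins), Opcml 378, 1406, 1298 and 1046 over 92, and Ncam1 180, 928, 925 and 684 over 32. Robo1, an axon guidance receptor gene with no gene read, had 18, 124, 117 and 69. Here too the control was lowest. Dcc, the netrin receptor gene, had 1467, 1503, 1266 and 1016, with log2 ratios of 0.43, -0.02 and -0.10 (-1.07, -1.41 and -1.39 when scaled over unassigned bins), although 56, 37 and 39 of its 79 loci were higher and 3 lower in each comparison. Ctnna2 (alpha N-catenin) had 700, 309, 291 and 229, with log2 ratios of -0.79, -1.08 and -1.18, although 11, 7 and 6 of its 21 loci were higher.

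Neural progenitor regulators, 29 genes, held 748 loci in 20 hosts, with medians of 2.11, 1.96 and 1.78 and with 529, 484 and 429 higher (70.7%, 64.7% and 57.4%) and 8, 7 and 6 lower. The same shares were 60.9%, 55.9% and 48.5% over all intronic loci and 42.2%, 39.3% and 34.1% over all features. Medians over all intronic loci were 2.06, 1.88 and 1.78. Tcf4, a bHLH factor, had 390, 1761, 1766 and 1366 reads over 52 loci, and Nfia 393, 1416, 1450 and 1082 over 53. Ptprz1, a receptor phosphatase of radial glia, had 800, 2212, 1926 and 1676 over 48 loci, beside 878, 1196, 1017 and 890 gene reads. In these 3 the control was lowest by locus reads. Sox6 and Slc1a3, a glial glutamate transporter gene, differed less, with 1148, 1474, 1558 and 1288 and with 791, 831, 879 and 705 reads. Their log2 ratios, at most 0.75, turned negative when scaled over unassigned bins. Nuclear and imprinted long noncoding RNAs, 26 genes, held 121 loci in 10 hosts, with medians of 2.31, 2.03 and 1.53 and with 88, 74 and 55 higher (72.7%, 61.2% and 45.5%, the last of these below the share of all intronic loci) and 2 lower in each comparison. Pvt1 had 187, 1025, 867 and 683 reads over 32 loci, Airn (the antisense RNA of the imprinted Igf2r locus) 60, 280, 366 and 254 over 20 loci, 9 of them in another gene body too and none with a known strand, and Sox2ot, in which Sox2 lies, 271, 339, 331 and 241 (log2 ratios 0.72, 0.48 and 0.26, also negative under that scaling). Jpx, which lies beside Xist, had 4, 46, 50 and 18, and its gene reads were 17, 36, 33 and 19.

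**Figure D5:**
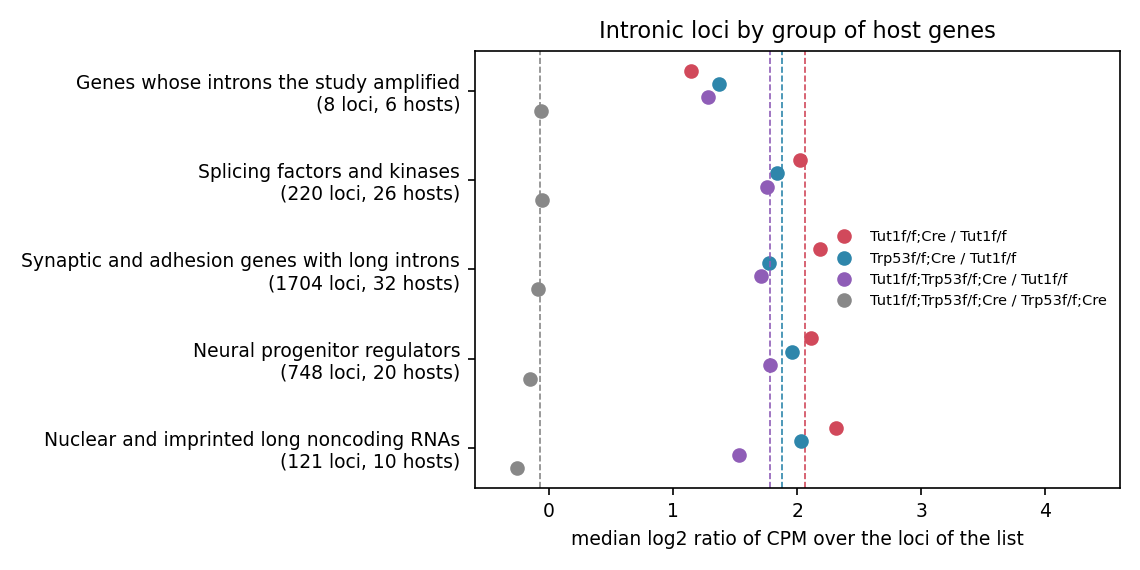
Median log2 ratio of CPM (x axis) over the intronic loci of 5 groups of host genes (rows, with numbers of loci and hosts), 1 point per comparison of libraries, with dashed lines at the medians of all intronic loci. Apart from the 8 loci of genes whose introns the study amplified, which lie between 1.14 and 1.37 against the control, the groups' medians against the control lie between 1.53 and 2.31.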

How the data were processed

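The authors deposited raw counts of Nanopore cDNA reads per isoform row for the 4 libraries, with the genome build mm10 in their processing notes. The study names minimap2 and FLAIR for its long reads of pallium tissue. Whether they made this table, and any filter behind it, is not given in the sources used here. The members and the gene lists were chosen with earlier results of these data known.

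Each unassigned position was taken as the left edge of a 1 kb bin, set against GENCODE M21 genes and exons, and rows of a bin were summed. CPM used the reads of rows naming a gene, with TMM factors over genes. All columns matched a sample, with 0 left over. Pairs of libraries were compared by exact conditional 95% intervals of the ratio and a 2-fold minimum. Tut1 and Trp53 status were fitted together in edgeR 4.0.16 (quasi-likelihood, R 4.3.3), with called meaning an adjusted p under 0.05 and 2-fold, and DESeq2 1.42.0 as an alternative. The edgeR fit was tested on simulated data, which held no effect shared by the libraries with Cre mRNA. Python 3.11.15, numpy 2.4.6, scipy 1.17.1 and pandas 2.3.3 did the rest. Promoter windows and gene starts came from RefSeq tables of GRCm38.p6.

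Named loci were the 10 with most reads, those past the rule in all 3 comparisons with the control or in both Tut1 comparisons (8 of most reads or largest ratio in each direction), those called by edgeR, and those in Trp53 and the genes the study amplified. Named hosts were the 10 with most locus reads and hosts of the gene lists. Some items that these rules would name are not reported here. With 3936827 to 5125888 reads a library, a count of 0 allows up to 3 reads.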

Additional observations from a re-analysis of the deposited data

Results flagged for a closer look

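The intronic share was higher with the Tut1 label in only 1 of the 2 Tut1 comparisons. Tut1f/f;Cre exceeded Tut1f/f by 5.99 percentage points of library reads, whereas the Tut1f/f;Trp53f/f;Cre-labelled library was below the Trp53f/f;Cre-labelled library, with a difference of -0.157 percentage points, which would be 0.157 were the labels of these 2 libraries exchanged, and the whole-gene reads of Tut1 do not check them. The study reports splicing changes found in both cell groups with Tut1 deleted but not with Trp53 deleted alone, which follows the labels. That result was not rechecked here. Without the 10 loci with most reads, chosen after the data were seen, the differences were 6.16 and -0.0204 percentage points. With 1 library per group the difference between these effects was not tested, and only the former comparison has Cre mRNA on 1 side.

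At the level of loci, 473 passed the ratio rule in opposite directions in the 2 Tut1 comparisons, or 2.02% of loci against 1.90% of all features, and this was not tested either. These directions rest on the same labels.

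Intronic rows with fewer than 20 reads, which no comparison above used, held 4.56% of reads in Tut1f/f;Cre, 3.99% in the Trp53f/f;Cre-labelled library and 3.96% in the Tut1f/f;Trp53f/f;Cre-labelled library, above the 1.43% of the control.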

How the results depend on the processing

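Every setting kept the control lowest in intronic share. In the order of libraries, there were 5.42, 15, 13.6 and 13.1 intronic reads per 100 gene reads, which do not include them. The shares of library reads were 5.92%, 15.03%, 13.6% and 13.5% without a minimum of reads. They were 4.45%, 10.02%, 9.29% and 9.13% with bins centred on the position. Chosen after the data were seen, leaving out the Cdk8 locus gave 4.24%, 9.85%, 9.10% and 8.98%, and leaving out the 10 largest loci 3.30%, 9.47%, 8.71% and 8.69%. Host loci held 7.64, 21.03, 19.8 and 17.7 reads per 100 gene reads for hosts with 100 gene reads, 16.7, 46.2, 42.6 and 38.1 with bins in any number of gene bodies, and 13.8, 42.0, 38.8 and 35.2 without Cdk8, again added later. A minimum of 50 reads left 6971 loci. Against the control, 5337 and 139, 5155 and 134, and 4695 and 153 of these were higher and lower, with 179 and 287 between the last pair. Scaling over unassigned bins gave 3543 and 1386, 3110 and 1222, and 3321 and 1250, and reversed Cdk8 (-0.062, -0.13 and -0.19) and Rere (-0.31 and -0.26), while loci in Fabp7, Oip5, Trim28, Trp53, Pnisr and Sema5a, among others, gained calls as lower. At 4-fold, 137 and 143 were lower in the first 2 comparisons, and 171 higher and 293 lower in the last.

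The edgeR calls for Tut1 status and for Trp53 status went to 0 with that term alone, with unassigned bins fitted alone and in DESeq2. The cause was not tested. Loci at an unadjusted p under 0.05 were then 86 and 36 (0.688% and 0.288%), 139 and 97 (1.11% and 0.776%), and 320 and 171 (2.56% and 1.37%). Without an expression filter the calls stayed at 4 and 3, and with all reads as library size there were 6 and 4. No paired analysis was possible because each group has 1 library. Runs of A or T in the bins and their 2 alternatives were not run, since no genome sequence beyond the RefSeq start windows was used here. Depth limits single loci, whose median is 35 reads over 4 libraries.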
